A study of Homo sapiens with 6 samples.

Results

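This section describes the cytosolic ribosomal protein genes in cells labelled HK-2, an immortalised line derived from epithelium of the human renal proximal tubule. The members are the rows of the deposited FPKM table whose gene name is RPL or RPS followed by a number, with an optional letter A, X or L and an optional closing digit, together with RPLP0, RPLP1 and RPLP2. The rule found 82 of 33392 genes, 51 of the large subunit and 31 of the small subunit. It reads names alone and uses no measured value. It leaves out RPSA, FAU, RACK1 and RPL36AL, and it takes in the paralogs RPL3L, RPL7L1, RPL22L1, RPL26L1, RPL39L and RPS27L.

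RNA sequencing was performed on 6 libraries, all of cells stimulated with TGF-β1 and all with a time point of 48 h in their labels. In 3 libraries the cells carried an siRNA against DYRK2, a dual-specificity protein kinase, and in the other 3 a scramble siRNA. The question is how these transcripts stand with and without silencing of DYRK2 in stimulated cells. Cells without TGF-β1 were not analysed here. Nothing in the labels says whether the replicates came from separate cultures. The p-values therefore refer to the variation among these 6 libraries, part or all of which may be technical.

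A ribosome has a small subunit, which reads the mRNA, and a large subunit, which forms peptide bonds, and each holds about one copy of each of its proteins. The genes lie scattered over the genome, and most of their transcripts begin with a pyrimidine tract at the 5′ end, the TOP element, through which mTORC1 and LARP1 control their translation. Several of the proteins have further roles outside the ribosome, among them RPL5 and RPL11, which bind MDM2 together with the 5S rRNA and thereby stabilise p53.

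DYRK2 (ENSG00000127334) stood at 1.45, 1.54 and 1.49 FPKM in the siDYRK2 libraries, against 5.84, 6.06 and 5.96 FPKM in the scramble libraries. The groups did not overlap (log2 fold change −1.69, SE 0.0513, limma adjusted p = 2.0e-06; exact two-sided permutation p = 0.1, the smallest that 3 against 3 libraries allow). FPKM is a fragment count scaled to transcript length and to the total of the library, and the number of fragments is unknown. Pearson correlations between libraries of a group were 0.989 to 0.991 on the log2 scale across genes, which are not independent replicates. All 5 epithelial markers listed were expressed, with a summed level of 238 to 250 FPKM in the siDYRK2 libraries and 333 to 351 FPKM in the scramble libraries. Of 14 proximal tubule markers 12 were among the deposited genes, and 2 of these, among them FBP1, reached a mean of 0.5 FPKM. PAX2 and PAX8 reached at most 0.01 and 0.19 FPKM in any library. The tubule list summed to 6.73 to 7.95 FPKM with siDYRK2 and 11.5 to 12.1 FPKM with scramble siRNA. NKX2-1, a factor of lung and thyroid epithelium, averaged 23.4 and 26.5 FPKM in the siDYRK2 and scramble libraries. The lung list held 3 expressed genes of 5, of which 4 were among the deposited genes. These markers do not bear out the labelled tubule origin, so the identity of the line is in doubt and HK-2 is used as the label gives it. Endothelial markers summed to at most 0.07 FPKM in any library. Fibroblast markers, 4 of 5 among the deposited genes, summed to at most 0.75 FPKM. Of 4 leukocyte markers 2 were among the deposited genes, and of these CD68 alone was expressed. The part of these differences in the results below was not tested.

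Of the ribosomal protein transcripts that were called after DYRK2 silencing, most were a little lower and 2 were higher, while the larger number were not called. Of the 82 genes 81 passed the expression filter, a mean of at least 0.5 FPKM over the 6 libraries, and RPL3L, a paralog known from muscle, did not. By limma at an adjusted p under 0.05, 29 of the 81 fell (35.8%), 2 rose (2.47%) and 50 were not called. By sign alone 57 were below 0 and 24 above. Over all 15121 tested genes 17.9% fell and 20.4% rose. In both directions together 31 members were called, 38.3% of those tested, and the background over all tested genes was also 38.3%. The members were thus called as often as all tested genes together, with a different split of directions. They were called less often than genes of like level. At a mean of 20 FPKM or more, which 74 members reached, 40.5% of members and 57.8% of all genes were called. Their median log2 fold change, taken as siDYRK2 over scramble on the log2(FPKM + 0.5) scale, was −0.07, against 0.01 over all tested genes. The median member stood at 95% of its scramble mean. The values ran from −0.37 for RPL37 to 0.27 for RPS26, a narrow range beside −3.30 to 2.88 over all tested genes. The median absolute log2 fold change was 0.09 for the members and 0.17 for all tested genes.

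**Figure D1:**
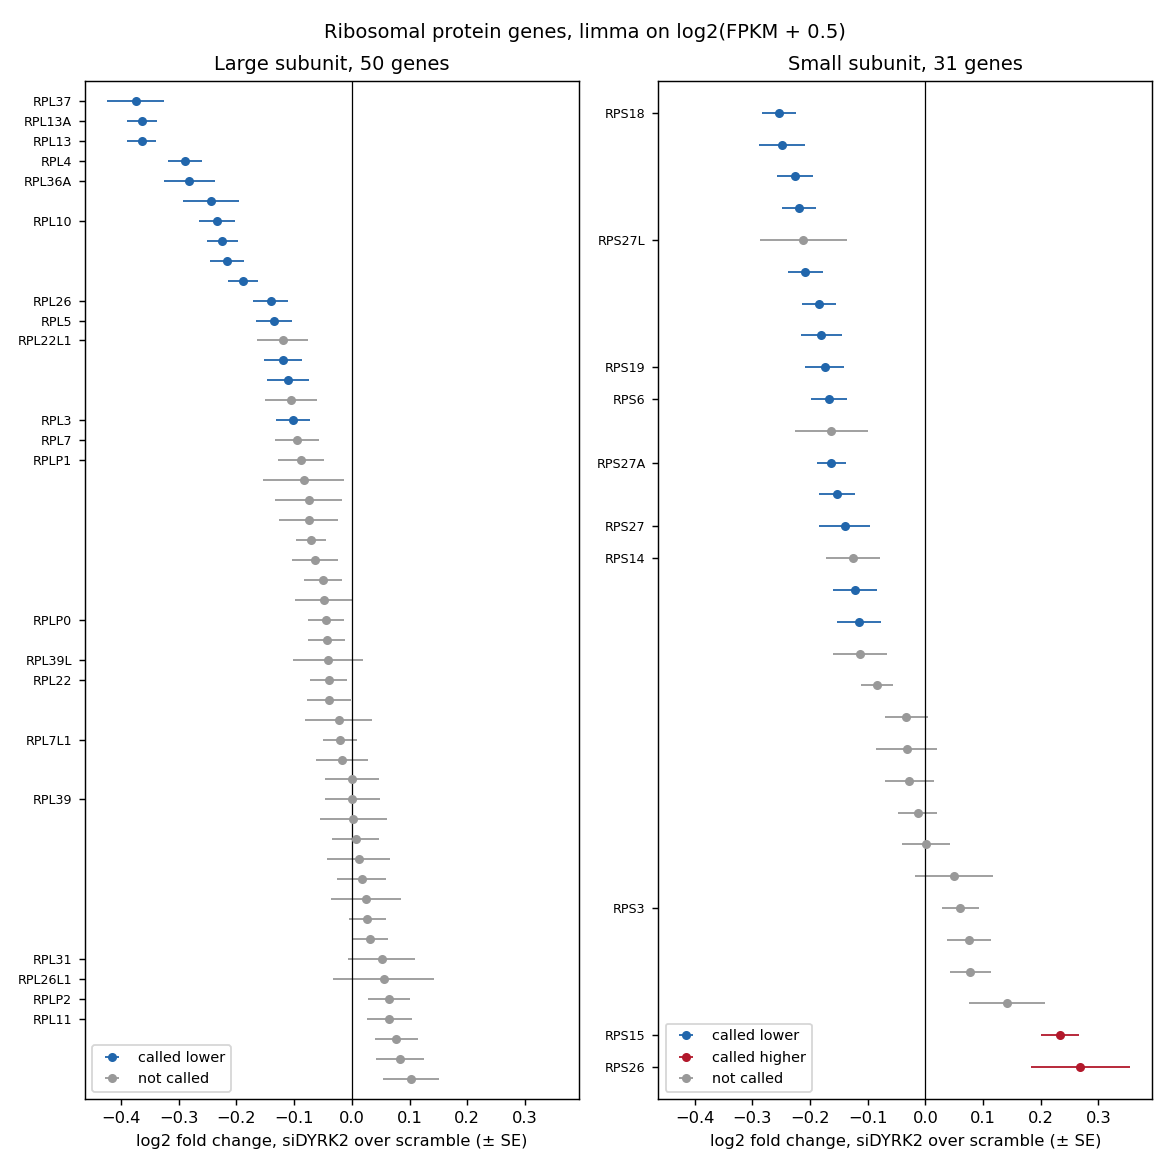
Each point is the log2 fold change of 1 ribosomal protein gene, siDYRK2 over scramble, with bars for its standard error, for 50 large subunit genes on the left and 31 small subunit genes on the right. Blue points mark the 29 genes called lower by limma, red points the 2 called higher (RPS15 and RPS26), and grey points the 50 not called. Names are printed for some of the genes only.

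Set side by side, the 2 subunits differed in how many members were called. Of 50 large subunit genes 15 fell (30%) and 0 rose. Of 31 small subunit genes 14 fell (45.2%) and 2 rose. The median log2 fold change was −0.05 for the large subunit and −0.12 for the small subunit. The median genes stood at 96.7% and 91.9% of their scramble means. The quartiles overlapped widely, at −0.12 and 0.01 for the large subunit and −0.18 and −0.01 for the small. The lowest values belonged to the large subunit, with 5 genes below the lowest of the small subunit, RPS18 at −0.25. Groups did not overlap for 20 large subunit genes (40%) and 22 small subunit genes (71.0%), against 51.7% of all tested genes. All but 2 small subunit genes and all but 6 large subunit genes averaged 20 FPKM or more. Of all genes at that level 67.7% did not overlap, so the small subunit share was near it and the large subunit share below it. With siDYRK2 lower, groups did not overlap for 35 of 81 members (43.2%). This compares with 24.3% of all tested genes and 28.1% of those at 20 FPKM or more.

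Summed over members, the siDYRK2 libraries held 9032, 8974 and 9284 FPKM and the scramble libraries 9751, 9837 and 9689 FPKM. Every siDYRK2 library was below every scramble library. This is 3.57% ± 0.0669 of all FPKM in siDYRK2 libraries and 3.85% ± 0.0464 in scramble libraries (SD, n = 3 each). The large subunit sum was 5228 ± 97.5 FPKM with siDYRK2 and 5639 ± 64.9 FPKM with scramble siRNA (SD, n = 3 each). The small subunit sum was 3845, 3817 and 3945 FPKM with siDYRK2 and 4107, 4137 and 4118 FPKM with scramble siRNA. The ratio of the large to the small sum was 1.35, 1.35 and 1.35 in the siDYRK2 libraries and 1.37, 1.38 and 1.35 in the scramble libraries, and the ratios of the groups overlapped. The mean ratio was 1.351 ± 0.00226 with siDYRK2 and 1.368 ± 0.0135 with scramble siRNA (SD, n = 3 each). By sums the large subunit thus fell by slightly the larger share, the reverse of the order of the medians. The sums give most weight to abundant genes. With each gene weighted equally, the median member of the siDYRK2 libraries lay at −0.08, −0.09 and −0.06 log2 units from its scramble mean. SiDYRK2 replicate 3 was the nearest to the scramble libraries. Without it the medians were −0.07 for the large and −0.15 for the small subunit. Transcripts of the mitochondrial genome took 27.6% to 27.8% of FPKM with siDYRK2 and 26.3% to 27.5% with scramble siRNA. With them left out of the scaling, 25 members fell and 2 rose. In bulk RNA fewer cells of a type and less RNA per cell cannot be told apart.

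The 5 genes with the largest decreases were of the large subunit. RPL13A, a large subunit protein that also acts in the GAIT translational silencing complex, stood at 173, 174 and 175 FPKM in the siDYRK2 libraries, against 224, 228 and 222 FPKM in the scramble libraries. The gap between the groups was many times their spread, and the gene was at 77.6% of its scramble mean (log2 fold change −0.36, SE 0.0259, limma adjusted p = 7.5e-05). RPL13 had 204, 201 and 203 FPKM with siDYRK2 and 259, 263 and 260 FPKM with scramble siRNA (log2 fold change −0.36, SE 0.0248, limma adjusted p = 6.4e-05). It had the smallest adjusted p of the members, and no library came near the other group. RPL37 (ENSG00000145592, chromosome 5, 40825262 to 40835335, minus strand, GRCh38) stood at 68.5, 67.0 and 63.4 FPKM with siDYRK2, against 82.3, 84.4 and 91.8 FPKM with scramble siRNA (log2 fold change −0.37, limma adjusted p = 0.0011). The groups did not overlap, although scramble replicate 3 was above the other 2 by more than these differed. RPL4, which lines the polypeptide exit tunnel, had 266, 269 and 265 FPKM with siDYRK2, against 331, 331 and 317 FPKM with scramble siRNA (log2 fold change −0.29, limma adjusted p = 3.6e-04). RPL36A stood at 14.0, 15.4 and 15.4 FPKM with siDYRK2 and 18.3, 18.4 and 18.1 FPKM with scramble siRNA (log2 fold change −0.28, limma adjusted p = 0.0025). Both were separated by group in all 6 libraries. All 5 calls held under each of the 15 alternative analyses.

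**Figure D2:**
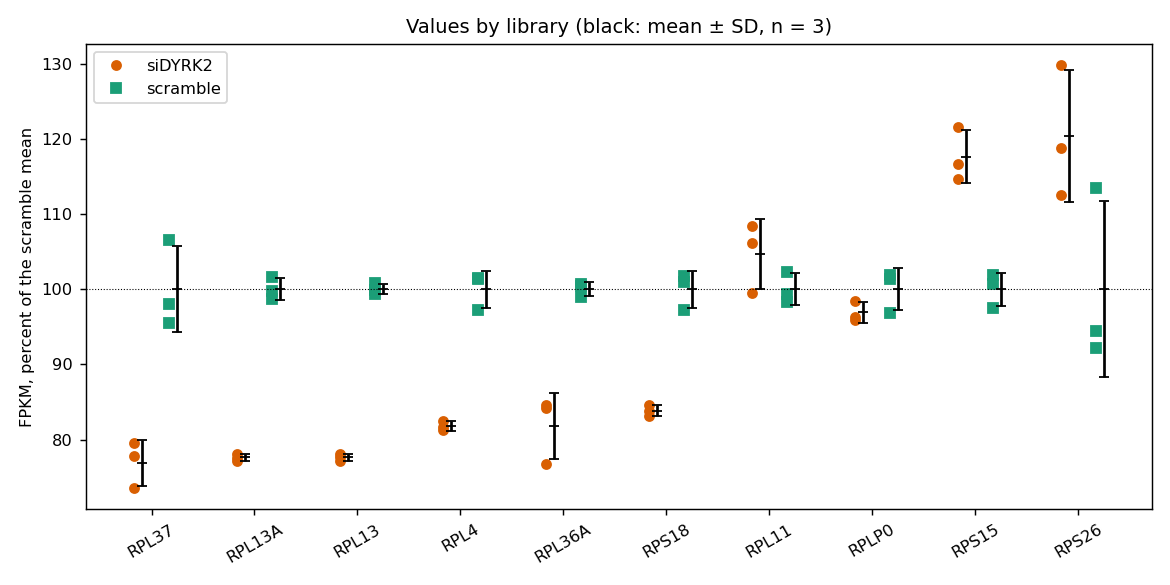
FPKM in each library as a percentage of the scramble mean of the gene, with siDYRK2 libraries (circles) left of scramble libraries (squares) and the mean ± SD in black (n = 3). The first 6 genes are the largest decreases with no overlap, RPL11 and RPLP0 overlap, RPS15 is higher in every siDYRK2 library, and RPS26 overlaps in 1 library of each group.

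The sequence around the start of these genes is shown because it carries the feature that the family is best known for. Each line gives 15 bases before and 15 after the annotated start, from RefSeq on GRCh38.p14, on the strand of the gene. Capitals mark an unbroken run of at least 5 pyrimidines that holds the first base of the transcript. No capitals means that the window has no such run. The first 6 genes fell and RPS15 and RPS26 rose.
RPL13A (chr19:49487593-49487622, plus strand): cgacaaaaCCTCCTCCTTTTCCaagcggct
RPL13 (chr16:89560667-89560696, plus strand): ttgcggggccgCTTCCTTTCCgctcggctg
RPL4 (chr15:66504841-66504870, minus strand): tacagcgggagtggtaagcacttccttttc
RPL36A (chrX:101390996-101391025, plus strand): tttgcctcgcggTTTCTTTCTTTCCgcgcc
RPS18 (chr6:33272060-33272089, plus strand): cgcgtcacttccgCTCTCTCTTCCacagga
RPS9 (chr19:54200843-54200872, plus strand): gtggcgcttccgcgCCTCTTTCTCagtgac
RPS15 (chr19:1438381-1438410, plus strand): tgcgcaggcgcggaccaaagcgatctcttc
RPS26 (chr12:56041903-56041932, plus strand): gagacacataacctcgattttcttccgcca
RPL13 has 3 windows in the table, of which the one with the longest run is printed, and the other 7 genes have 1. In all, 65 of the 81 tested members matched a window by symbol. Of these 49 (75.4%) held such a run in at least 1 window, 31 of 41 in the large and 18 of 24 in the small subunit. Of 10317 other tested genes 1220 (11.8%) had one, and of all 35116 windows 9.60%.

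Decreases occurred among members with and without the run. Over all tested genes 17.9% fell and 20.4% rose. Of the 49 with a run 20 fell (40.8%) and 0 rose, and the median log2 fold change was −0.08. Of the 16 without one 4 fell (25%), namely RPL4, RPL10A, RPL15 and RPS4X, and 2 rose, namely RPS15 and RPS26, with a median of −0.05. The genes that rose were thus both without a run that holds the annotated first base, and no test was made of this. The printed windows of RPS15, RPS26 and RPL4 do hold pyrimidine runs of at least 5 bases downstream of that base. Whether their transcripts start within such a run was not tested.

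Of the 5S particle and the stalk, which recruits elongation factors, RPL5 alone was called. RPL5 had 113, 114 and 112 FPKM in siDYRK2 libraries, against 124, 128 and 121 FPKM in scramble libraries, without overlap (log2 fold change −0.13, limma adjusted p = 0.012). Its partner RPL11 had 95.8, 89.8 and 97.9 FPKM with siDYRK2 and 88.7, 92.4 and 89.8 FPKM with scramble siRNA. The groups overlapped (log2 fold change 0.06, limma adjusted p = 0.23). Whether RPL5 and RPL11 differ from each other was not tested. The call of RPL5 was lost without scramble replicate 2 (limma adjusted p = 0.05003). RPLP0, the stalk base, averaged 410 ± 5.81 FPKM with siDYRK2 and 423 ± 11.9 FPKM with scramble siRNA (SD, n = 3 each; limma adjusted p = 0.30). RPLP1 and RPLP2, which form dimers on RPLP0, had log2 fold changes of −0.09 and 0.06 (limma adjusted p = 0.12 and 0.20). RPLP1 passed the threshold without siDYRK2 replicate 3 (limma adjusted p = 0.035), the library in which its level was highest of the 3, and it was not called otherwise.

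RPL10 and RPL3, which reach close to the peptidyl transferase centre, fell. RPL10, a late-joining protein of the large subunit, had 72.9, 71.8 and 76.2 FPKM with siDYRK2, against 87.7, 85.5 and 86.7 FPKM with scramble siRNA (log2 fold change −0.23, limma adjusted p = 0.0013). RPL3 had 230, 225 and 223 FPKM with siDYRK2 and 237, 249 and 243 FPKM with scramble siRNA (log2 fold change −0.10, limma adjusted p = 0.034). RPL10 was clearly separated, whereas RPL3 was separated by a few FPKM. The call of RPL3 was lost under 8 alternatives, among them without each of the siDYRK2 libraries and without scramble replicate 2 or 3 (limma adjusted p up to 0.13). The other large subunit genes that fell were RPL41, RPL19, RPL10A, RPL15, RPL26, RPL27A and RPL30, at 84.5% to 92.5% of their scramble means. Of the 35 that were not called, RPL35, RPL24 and RPL28 lay highest, at 107%, 106% and 105%.

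In the small subunit the decreases were spread over many genes of similar size. RPS18, a protein of the subunit head, stood at 322, 316 and 318 FPKM in the siDYRK2 libraries, against 370, 384 and 387 FPKM in the scramble libraries (log2 fold change −0.25, SE 0.0295, limma adjusted p = 6.3e-04). RPS6, the substrate of the S6 kinases, had 190, 194 and 184 FPKM with siDYRK2 and 208, 215 and 215 FPKM with scramble siRNA (log2 fold change −0.17, limma adjusted p = 0.0055). RPS19, the gene most often mutated in Diamond-Blackfan anaemia, had 148, 141 and 151 FPKM with siDYRK2, against 161, 168 and 167 FPKM with scramble siRNA (log2 fold change −0.17, limma adjusted p = 0.0063). The groups of all 3 genes were apart in every library. RPS27A, which is made as a fusion with ubiquitin, had 133, 132 and 134 FPKM with siDYRK2 and 149, 151 and 148 FPKM with scramble siRNA (log2 fold change −0.16, limma adjusted p = 0.0025). RPS14, whose gene is lost in the 5q deletion syndrome of the bone marrow, had 39.9, 36.5 and 40.7 FPKM with siDYRK2 and 43.8, 42.1 and 41.9 FPKM with scramble siRNA. Its groups did not overlap, but it was not called (log2 fold change −0.13, limma adjusted p = 0.070). The other small subunit genes that fell included RPS9, RPS3A, RPS16, RPS7, RPS23, RPS4X, RPS27, RPS20 and RPS25, at 84.0% to 92.4% of their scramble means.

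RPS3, which lies at the mRNA entry site, was at 118, 115 and 123 FPKM with siDYRK2 and 113, 115 and 113 FPKM with scramble siRNA. The lowest siDYRK2 value was just above the highest scramble value, and the gene was not called (log2 fold change 0.06, limma adjusted p = 0.17). RPS12, the most abundant member, had 569, 565 and 558 FPKM with siDYRK2 and 599, 606 and 588 FPKM with scramble siRNA. It did not overlap and just missed the threshold (log2 fold change −0.08, limma adjusted p = 0.051), and it was called lower under 3 of 15 alternatives, among them without scramble replicate 3. RPS2, the second in level, was at 99.1% of its scramble mean with overlapping groups.

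The 2 genes that rose were both of the small subunit. RPS15, which reaches toward the decoding centre, had 112, 110 and 116 FPKM in siDYRK2 libraries, against 96.3, 93.3 and 97.4 FPKM in scramble libraries. It was 1.18-fold higher without overlap (log2 fold change 0.23, SE 0.0332, limma adjusted p = 0.0016), and no alternative ended the call. RPS26, at the mRNA exit channel, had 58.5, 61.7 and 67.4 FPKM with siDYRK2, against 49.0, 47.9 and 58.9 FPKM with scramble siRNA. Scramble replicate 3 lay above siDYRK2 replicate 1, so the groups overlapped. The call (log2 fold change 0.27, limma adjusted p = 0.044) was lost under 6 of 15 alternatives, including without siDYRK2 replicate 2 or 3 and without scramble replicate 1 or 2 (limma adjusted p up to 0.13). RPS10 was next, at 110% of its scramble mean with overlapping groups (limma adjusted p = 0.13).

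Paralogs were compared with the member they resemble, all as FPKM and thus per length. RPS27L, a p53-responsive paralog, had 1.52, 1.66 and 1.39 FPKM with siDYRK2 and 1.80, 1.89 and 1.83 FPKM with scramble siRNA. It did not overlap and was not called (log2 fold change −0.21, limma adjusted p = 0.062), and it was the lowest member that passed the filter. RPS27 itself averaged 178 ± 7.45 FPKM with siDYRK2 and 197 ± 8.80 FPKM with scramble siRNA (SD, n = 3 each; limma adjusted p = 0.043), a call lost under 10 alternatives, among them without any 1 of the 6 libraries (limma adjusted p up to 0.13). RPL22L1 stood at 26.0, 27.6 and 26.3 FPKM with siDYRK2 and 29.6, 27.4 and 29.9 FPKM with scramble siRNA. RPL22 averaged 28.0 ± 0.575 FPKM with siDYRK2 and 28.8 ± 0.595 FPKM with scramble siRNA (SD, n = 3 each). These paralogs were at nearly the same level, and neither was called (limma adjusted p = 0.070 and 0.37). RPL22L1 passed the threshold without scramble replicate 2 (limma adjusted p = 0.033).

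RPL26 averaged 193 ± 4.80 FPKM with siDYRK2 and 213 ± 3.72 FPKM with scramble siRNA and fell (SD, n = 3 each; limma adjusted p = 0.0096). Its paralog RPL26L1 averaged 19.0 ± 1.40 FPKM with siDYRK2 and 18.3 ± 2.07 FPKM with scramble siRNA (SD, n = 3 each; limma adjusted p = 0.66), far below RPL26. RPL7 was at 93.6% of its scramble mean and RPL7L1 at 98.6% (limma adjusted p = 0.094 and 0.63). RPL7 passed the threshold without scramble replicate 3 (limma adjusted p = 0.013), in which it was the lowest of the scramble libraries. RPL39 and RPL39L were at 100.1% and 97.2% (limma adjusted p = 0.99 and 0.63). RPL36A fell, as given above, while its near-identical relative RPL36AL, which the naming rule leaves out, averaged 144 ± 8.58 FPKM with siDYRK2 and 143 ± 7.00 FPKM with scramble siRNA (SD, n = 3 each; limma adjusted p = 0.95). Differences between paralogs were not tested.

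Levels spread widely. The mean over 6 libraries ran from 0.137 FPKM for RPL3L and 1.68 FPKM for RPS27L to 581 FPKM for RPS12, with a median of 83.5 FPKM. RPS12, RPS2, RPLP0, RPL8 and RPS18 together held 23.8% of the summed FPKM of the family. Among the 35 members that averaged 100 FPKM or more, 19 fell and 1 rose (54.3% and 2.86%), and the median log2 fold change was −0.11. Among the 46 tested members below that level, 10 fell and 1 rose (21.7% and 2.17%), with a median of −0.04. Of all 224 genes at that level 35.7% fell and 23.2% rose, 58.9% in all. Groups did not overlap for 24 of the 35 (68.6%), against 70.1% of the 224 genes, and with siDYRK2 lower for 22 (62.9%), against 41.1%. At 20 FPKM or more, 28 of 74 members fell (37.8%), against 23.6% of 2103 genes, and 2 rose (2.70%), against 34.2%. At that level 40.5% of the members and 57.8% of all genes were called in either direction. Groups did not overlap for 39 of the 74 (52.7%), against 67.7% of all genes, and with siDYRK2 lower for 32 (43.2%), against 28.1%. Both levels were chosen after the values were seen.

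**Figure D3:**
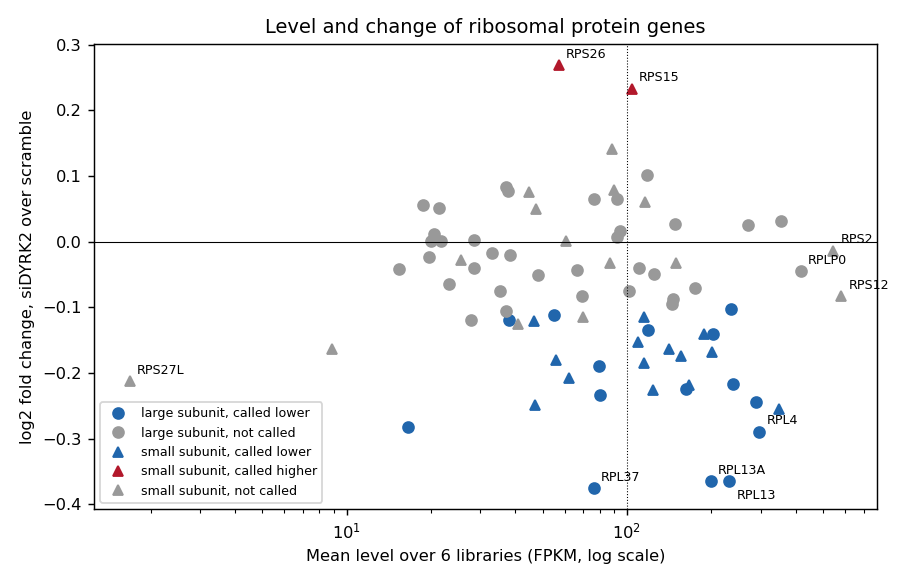
Each point is 1 of the 81 tested ribosomal protein genes, placed by its mean FPKM over 6 libraries on a log axis and its log2 fold change, siDYRK2 over scramble, with circles for the large and triangles for the small subunit. Of the members right of the dotted line at 100 FPKM 19 are called lower, and of those left of it 10.

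Many members host small nucleolar RNAs in their introns. In the GENCODE release 29 annotation on GRCh38, 27 tested members contain at least 1 on the same strand, with 5 in RPL4 and 4 each in RPL13A, RPL7A and RPL23A. Of these hosts 12 were called lower (44.4%) and 0 higher, and their median log2 fold change was −0.08. Of the 54 others 17 fell (31.5%) and 2 rose, and their median was −0.07. Of all 81 tested members 35.8% fell and 2.47% rose, and of all tested genes 17.9% fell and 20.4% rose. The split was not tested. RPL37, with the largest decrease, hosts 1, and RPL13 also 1.

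Most members have processed pseudogenes, near-copies that can take up their reads. Rows with a member's name followed by P and a number came to 572, for 72 of the 82 genes, and their mean FPKM came to 19.9% of that of the members. For 8 members, among them RPS27, RPL21, RPL9 and RPL36A, the pseudogene rows summed to more than the member. Of 114 tested pseudogene rows 19 fell (16.7%), 1 rose (0.877%) and 94 were not called, against 17.9% lower and 20.4% higher over all tested genes. The share that fell was thus near that of all genes. Their median log2 fold change was −0.11. Of the 19 that fell, 10 belong to a member that fell, 8 to a member that was not called and 1, RPS26P8, to RPS26, which rose. RPL36AP37, chosen after its values were seen, had 40.0, 38.8 and 38.3 FPKM with siDYRK2, against 50.5, 50.8 and 51.2 FPKM with scramble siRNA (log2 fold change −0.38, limma adjusted p = 1.1e-04), a change in the direction of RPL36A. RPL39P40 fell with a log2 fold change of −0.56 (limma adjusted p = 0.0023), while RPL39 was not called.

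RPL31P11 was the exception in size. The deposited table has 2 rows of this name, of which ENSG00000213075 alone carries it in the table of gene names used here. The row ENSG00000293173 was counted with RPL31 by its deposited name only, and it may be another gene. The row ENSG00000293173 stood at 17.8, 19.4 and 18.0 FPKM with siDYRK2, against 76.7, 73.7 and 69.0 FPKM with scramble siRNA, a fall to 25.2% (log2 fold change −1.96, limma adjusted p = 1.5e-06). The row ENSG00000213075 had 3.88, 2.54 and 5.23 FPKM with siDYRK2 and 10.9, 6.71 and 7.63 FPKM with scramble siRNA (log2 fold change −1.04, limma adjusted p = 0.014). RPL31 itself had 20.1, 21.6 and 23.7 FPKM with siDYRK2 and 20.8, 20.8 and 21.4 FPKM with scramble siRNA (limma adjusted p = 0.52). RPL31 thus overlapped between groups where the rows of this name did not. With both of these and the other rows named as its pseudogenes added, RPL31 had a log2 fold change of −1.18 (limma adjusted p = 1.2e-05). How reads were shared between such copies is not given in the sources used here. With the pseudogene rows added to every member, 26 members fell and 2 rose.

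**Figure D4:**
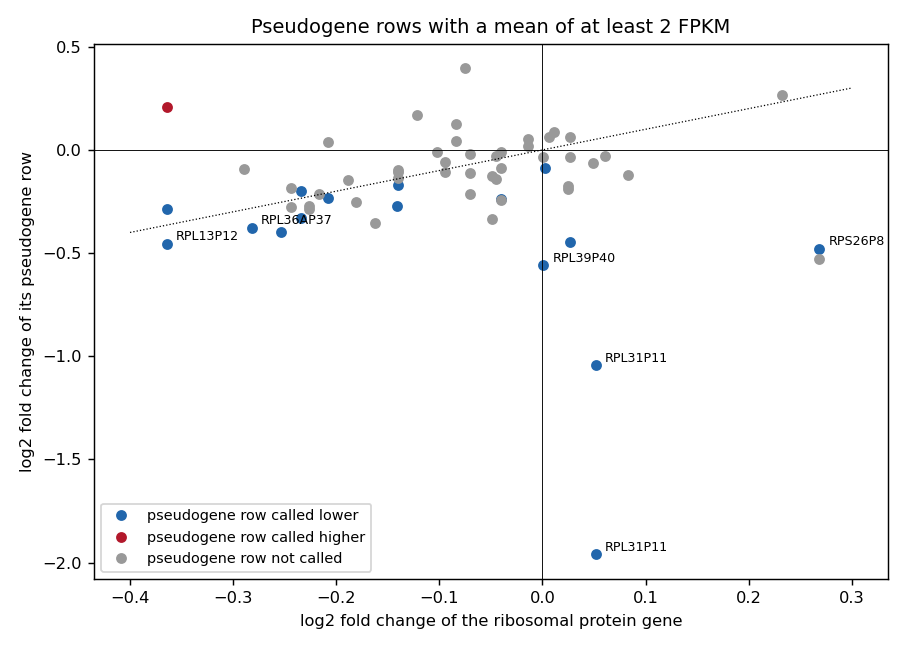
Each point is 1 of 61 pseudogene rows with a mean of at least 2 FPKM, placed by the log2 fold change of its ribosomal protein gene on the x axis and its own on the y axis, both siDYRK2 over scramble. The dotted line marks equal change. Of these rows 16 are called lower and 1 higher, and both RPL31P11 rows lie far below the line.

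RPSA, the ribosomal protein that the naming rule leaves out, fell far more than any member, to 24.4 ± 1.31 FPKM with siDYRK2, against 79.7 ± 2.22 FPKM with scramble siRNA (SD, n = 3 each; log2 fold change −1.69, limma adjusted p = 1.5e-06). FAU, RPL36AL and RACK1 were not called, with log2 fold changes of 0.00 to 0.09.

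Genes that build ribosomes mostly moved the other way. Of 48 ribosome assembly factors 32 rose (66.7%) and 4 fell. Their median log2 fold change was 0.20, and over all tested genes 20.4% rose and 17.9% fell. RIOK1, a kinase of small subunit maturation, stood at 14.7 ± 0.353 FPKM with siDYRK2 and 9.40 ± 0.270 FPKM with scramble siRNA (SD, n = 3 each; log2 fold change 0.62, limma adjusted p = 4.6e-05). RPF2, which loads the 5S particle with RPL5 and RPL11, rose to 144% of its scramble mean. The helicase DDX21 rose to 130% and NOB1, the nuclease that trims the small subunit rRNA, to 124%. EIF6, which keeps immature large subunits from joining and was chosen after its values were seen, fell to 80.4%. Between 26 and 34 assembly factors rose under the alternatives.

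Of 15 genes of RNA polymerase I and its factors 3 rose (20%) and 1 fell (6.67%). Over all tested genes 20.4% rose and 17.9% fell, so the share that rose was near that of all genes. RRN3, the initiation factor of that polymerase, was at 115% of its scramble mean, POLR1B at 116% and TTF1 at 118%, and POLR1D fell to 82.9%. Other transcripts with a TOP element did not share one direction. Of 18 elongation factors and other TOP mRNAs 3 rose (16.7%) and 3 fell (16.7%). These shares were near the 20.4% and 17.9% of all tested genes. The median log2 fold change was 0.06, and 2 to 5 rose and 1 to 4 fell under the alternatives. TPT1, the translationally controlled tumour protein, had 66.7 ± 1.25 FPKM with siDYRK2 and 88.0 ± 1.51 FPKM with scramble siRNA (SD, n = 3 each; log2 fold change −0.40, limma adjusted p = 8.3e-05). EEF1A1 and EEF1B2, which bring tRNA to the ribosome and recycle its carrier, also fell, to 89.1% and 90.3%. The importin IPO5, the histone chaperone NAP1L1 and the initiation factor subunit EIF3E rose to 121%, 117% and 116%. EEF2, the translocase, was not called, at 105%.

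Among 12 genes of mTORC1 and TOP mRNA control 5 rose (41.7%) and 3 fell (25%), against 20.4% higher and 17.9% lower over all tested genes. MTOR, the kinase of the complex, had 9.15 ± 0.237 FPKM with siDYRK2 and 6.62 ± 0.260 FPKM with scramble siRNA (SD, n = 3 each; log2 fold change 0.44, limma adjusted p = 3.6e-04). Its partner RPTOR rose to 129%, and of the S6 kinases RPS6KB2 rose to 129% and RPS6KB1 fell to 82.5%. LARP1, which binds the TOP element, was at 107% and was not called (limma adjusted p = 0.051). These are transcript levels and do not measure the activity of the pathway.

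**Figure D5:**
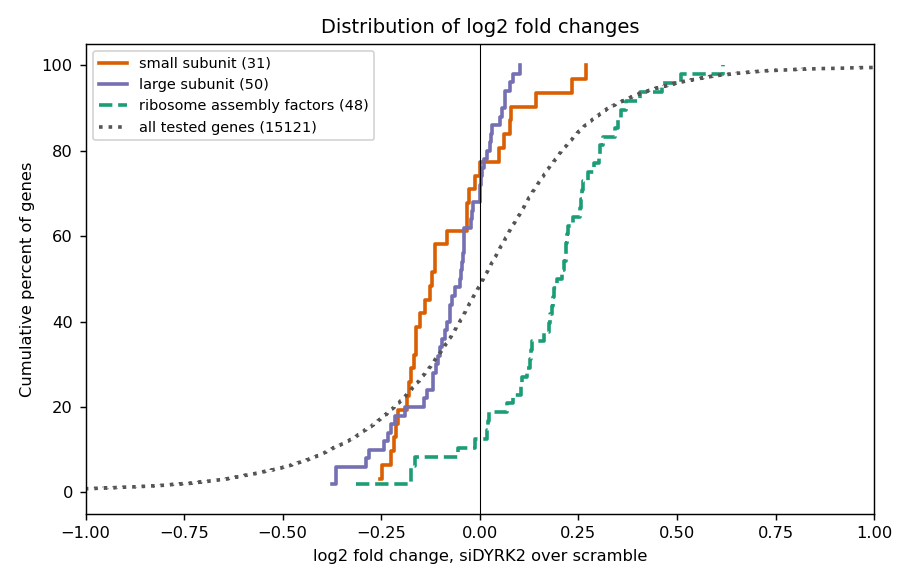
Cumulative percentage of genes against the log2 fold change, siDYRK2 over scramble, for 31 small subunit genes, 50 large subunit genes, 48 ribosome assembly factors and all 15121 tested genes, drawn between −1 and 1. The medians are −0.12 for the small subunit, −0.05 for the large subunit and 0.20 for the assembly factors.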

How the data were processed

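RNA was isolated by Trizol with a DNase I step, per the labels' protocols. HISAT2, StringTie and the GRCh38 build are named, per the submitters' processing notes. Versions, annotation and strandedness are not given in these sources. The authors deposited FPKM for 33392 genes in 6 columns rounded to 2 decimals, per the file headers, with 0 other columns of per-sample values. Counts were not recovered: at best 25.9% to 29.1% of low values, by library, came within 0.1 of a whole read, against 20% by chance, so depth is unknown and intervals from counts are not printed.

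The 15121 genes averaging 0.5 FPKM or more entered limma 3.58.1 (R 4.3.3) as log2(FPKM + 0.5), mean-variance trend, no block, Benjamini-Hochberg adjustment over all of them at 0.05. The fit was tested on simulated data. Values are mean ± SD of FPKM and percentages are ratios of mean FPKM. Subunit medians have no test. Genes given in full are a panel by role, paralog pairs, the 6 largest decreases and increases past the threshold without overlap, up to 4 genes of each companion list and 3 pseudogene rows; others were chosen after their values were seen. The members and lists were chosen with earlier results of these data known, and the splits by level, pyrimidine run and small nucleolar RNA after the values were seen. Sequences are from RefSeq (GRCh38.p14), and small nucleolar RNAs from GENCODE 29. Tables and plots used Python 3.11.15, numpy 2.4.6, pandas 2.3.3 and matplotlib 3.10.9.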

Additional observations from a re-analysis of the deposited data

How the results depend on the processing

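Across 15 alternative analyses (pseudocount, filter, scaling, pseudogene rows, replicate block and each library left out) 23 of the 31 called members kept their call, 22 of them lower, and 8 lost it under at least 1 (RPS27, RPL5, RPS20, RPL27A, RPS25, RPL30, RPL3 and RPS26). Between 23 and 30 members fell. The number that rose was 1 in place of 2 without a filter on low values and with libraries rescaled to 1 common sum. Leaving out 1 library gave 1 to 2 members that rose, 23 to 28 that fell, a large subunit median of −0.074 to −0.039, a small subunit median of −0.15 to −0.11 and a difference of large minus small of 0.040 to 0.076, which was 0.072 with all libraries. With pseudogene rows added that difference was 0.049. This difference of medians stayed above 0 in each case. The ratio of the summed FPKM leaned the other way, with overlapping groups, as given above.

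Of the 31 genes of the role panel, the paralog pairs and the largest changes, 5 near 0 changed sign. With pseudogene rows RPL31 was at −1.18 and RPL39 at −0.093. With libraries rescaled RPL39 was at −0.0042 and RPL36AL at −0.00059. Without 1 library RPL31 ran from −0.0080 to 0.11, RPL39 from −0.038 to 0.032, RPL36AL from −0.040 to 0.045, RPL26L1 from −0.031 to 0.13 and RPL39L from −0.072 to 0.020. The causes were not tested.

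With the replicate number as a block, 25 members fell and 2 rose. Deviations of same-numbered libraries from their group means correlated at −0.077, 0.024 and −0.088 across tested genes. Those of differently numbered libraries correlated at −0.040 to 0.11. The labels link same-numbered libraries by the number alone. With 3 libraries per group these correlations cannot tell whether they shared a culture or a batch. FPKM without depth limits the precision of low members such as RPS27L.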
